A study of Mus musculus with 2 samples.

Results

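The 47 genes described here encode ligands and receptors of the tumour necrosis factor (TNF) superfamily and the TRAF adaptors that bind those receptors inside the cell. They were taken from a list of 18 ligands, 22 receptors and 7 TRAFs, and a peak of PPARγ was given to a gene when its centre lay nearest to 1 of that gene's start sites, within 100 kb. By this rule 16 of the 2537 deposited peaks belonged to 9 of the 47 genes. The peaks come from mouse TH2 cells of the C57BL/6J strain, differentiated in culture from naive CD4+ T cells. The cells were transduced on days 1 and 2 with a retrovirus that expresses TY1-tagged PPARγ and were harvested on day 4 for chromatin immunoprecipitation with an antibody against the TY1 tag. The single ChIP library was set against 1 input library from the same kind of cells, which also carried the virus, so the map is that of introduced receptor, with no library from cells without it. Per the series' design text the ChIP was done several times and 1 replicate was used, so there was no replicate here and no measurement of gene expression, so no test across samples was possible, the identity of the cells could not be checked against marker genes, and intervals below cover counting error only.

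PPARγ is a nuclear receptor that binds DNA as a partner of RXR at the element DR1, in which a pair of AGGTCA cores stand in tandem, 1 base apart. Ligands of the TNF superfamily are mostly trimeric proteins of the cell surface. Their receptors include costimulatory receptors, most of which carry TRAF binding motifs and many of which sustain activated T cells. They also include death receptors, whose cytoplasmic death domain can start apoptosis, and receptors of neither kind. In type 2 immunity the family is best known for OX40L and its receptor OX40, which promote TH2 responses. A peak near a gene shows where the tagged receptor was recovered, not whether the gene responded to it.

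Of the 16 peaks, 8 are shown because they hold a DR1 match or lie nearest to a start site. They are the 3 with a DR1 match, the 3 at Traf1, the Traf3 peak and the Tnfsf4 peak closest to its gene. All are mm10 sequence read on the plus strand, and capitals mark matches to DR1, to the AP-1 site TGACTCA, to the single AGGTCA core or to the RUNX site TGTGGT, on either strand.
Tnfrsf18 promoter peak, chr4:156025177-156025349: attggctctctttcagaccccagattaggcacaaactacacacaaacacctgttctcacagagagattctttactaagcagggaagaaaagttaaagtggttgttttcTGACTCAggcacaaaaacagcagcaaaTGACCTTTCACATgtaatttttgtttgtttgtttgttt
Tnfsf13b intronic peak, chr8:10012340-10012512: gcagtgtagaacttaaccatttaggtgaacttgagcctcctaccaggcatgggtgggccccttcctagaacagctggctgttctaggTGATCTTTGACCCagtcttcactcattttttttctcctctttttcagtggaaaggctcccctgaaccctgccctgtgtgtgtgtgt
Cd40lg upstream peak, chrX:57177589-57177761: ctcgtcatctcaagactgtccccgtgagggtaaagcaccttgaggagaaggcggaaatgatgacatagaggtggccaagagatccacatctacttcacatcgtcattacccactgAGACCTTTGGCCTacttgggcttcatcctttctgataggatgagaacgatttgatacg
Traf1 peak at an internal start site, chr2:34958093-34958265: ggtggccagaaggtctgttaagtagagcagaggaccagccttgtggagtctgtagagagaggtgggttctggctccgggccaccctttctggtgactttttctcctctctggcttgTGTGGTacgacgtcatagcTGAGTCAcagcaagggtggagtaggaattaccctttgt
Traf1 upstream peak, nearer, chr2:34963421-34963593: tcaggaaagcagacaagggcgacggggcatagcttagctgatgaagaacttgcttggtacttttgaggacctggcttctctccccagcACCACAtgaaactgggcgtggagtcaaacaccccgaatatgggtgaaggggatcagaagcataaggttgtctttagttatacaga
Traf1 upstream peak, farther, chr2:34964296-34964468: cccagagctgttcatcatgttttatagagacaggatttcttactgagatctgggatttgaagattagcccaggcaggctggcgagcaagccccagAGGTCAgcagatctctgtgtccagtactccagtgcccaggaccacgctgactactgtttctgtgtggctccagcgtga
Traf3 upstream peak, chr12:111159819-111159991: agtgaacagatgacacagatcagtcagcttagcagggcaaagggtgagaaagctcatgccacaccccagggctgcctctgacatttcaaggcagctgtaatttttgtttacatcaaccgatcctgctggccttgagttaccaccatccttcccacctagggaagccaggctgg
Tnfsf4 upstream peak, chr1:161379239-161379411: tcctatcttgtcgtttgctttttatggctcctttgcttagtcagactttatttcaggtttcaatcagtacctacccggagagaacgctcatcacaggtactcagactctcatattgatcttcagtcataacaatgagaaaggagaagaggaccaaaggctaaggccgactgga

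The sequences differ in what they hold. DR1 was searched as AGGTCANAGGTCA with up to 2 mismatches in the 12 fixed bases, and each of the 3 matches used both mismatches. The Tnfrsf18 peak had ATGTGAAAGGTCA on the minus strand, with the substitutions G2T and C5G counted from the 5′ end of the consensus, so its downstream core was intact. An AP-1 site lay in the same peak, 25 bp from the centre, and the DR1 match was centred 55 bp from it. The Tnfsf13b match, GGGTCAAAGATCA, carried A1G and G10A and was centred 7 bp from the peak centre. The Cd40lg match, AGGCCAAAGGTCT, carried T4C and A13T and was centred 35 bp away. All 3 matches had adenine in the spacer. The Traf1 peak at the internal start site held an AP-1 site and a RUNX site, the nearer upstream peak a RUNX site, and the farther one a single AGGTCA core. The Traf3 peak and the Tnfsf4 peak shown held none of the 10 motifs searched.

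Across the family, 9 of 47 genes had an assigned peak, or 19.1% (exact 95% binomial interval 9.15 to 33.3). Over all 21851 protein-coding genes the share was 7.68%. The stretch of genome from which a gene can receive a peak, here called its territory, had a median of 46.1 kb in the listed genes and 47.3 kb in all genes. Per megabase of territory the listed genes had 4.93 peaks and all protein-coding genes 1.36. Genes are not replicates, and several listed genes are neighbours that divide 1 region among them, so these shares are descriptive and were not tested.

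**Figure D1:**
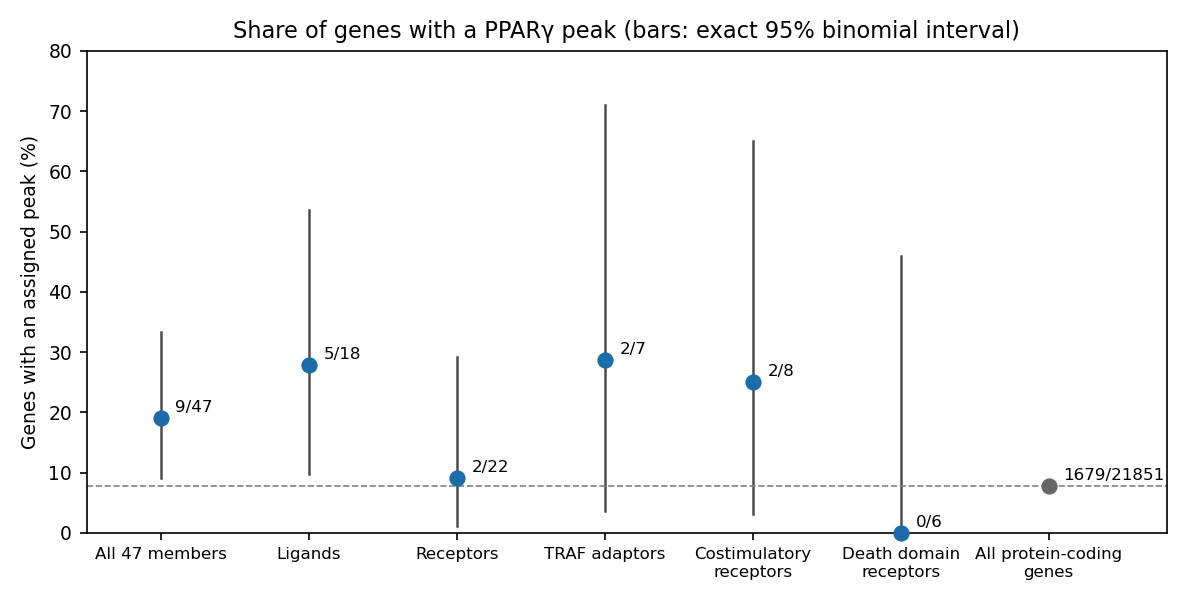
Share of genes with an assigned PPARγ peak, in percent, for the listed genes, their subgroups and all protein-coding genes. Points are shares with the gene counts beside them, vertical lines are exact 95% binomial intervals and the dashed line marks 7.68%; the interval of each subgroup is wide, and those of ligands and receptors overlap.

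Ligands had peaks at 5 of 18 genes (27.8%, interval 9.69 to 53.5) and receptors at 2 of 22 (9.09%, interval 1.12 to 29.2). The ligand share lies above 7.68% of all genes and the receptor share near it, but the intervals overlap and the difference was not tested. Ligands also had the larger territories, with a median of 91.1 kb against 35.4 kb for receptors. In peaks per megabase of territory the ligands had 6.89 and the receptors 1.42. The ligand value rests largely on 1 gene, Tnfsf4, with 5 of the 10 ligand peaks in a territory of 122 kb.

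Tnfsf4, which encodes OX40L, held 5 of the 10 ligand peaks, all upstream of it in sequence without protein-coding genes. Only 8 of all protein-coding genes (0.0366%) had 5 or more peaks. A group of 3 was centred 16.1, 16.7 and 19.1 kb upstream (chr1:161379239-161379411, chr1:161378631-161378803 and chr1:161376221-161376393), with gaps of 608 and 2410 bp between the centres. None of these 3 peaks held any motif searched. The other pair lay 57.9 kb (chr1:161337406-161337578) and 65.9 kb upstream (chr1:161329399-161329571), nearer to Tnfsf4 than to Prdx6, at 86.3 and 78.3 kb, but nearer still to the pseudogene Gm19057, at 38.5 and 30.5 kb. The peak at 57.9 kb held an AP-1 site 24 bp from its centre and a GATA site, and the one at 65.9 kb held a RUNX site and GATA sites. Farther out in the same interval, 3 peaks at 86.0, 88.2 and 92.7 kb from Tnfsf4 were assigned to Prdx6, which was closer, and the one at 88.2 kb held a DR1 match.

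Tnfsf18, the gene of GITR ligand and the next gene downstream of Tnfsf4, had 1 peak 16.2 kb upstream (chr1:161478330-161478502). This peak was 83.0 kb from the Tnfsf4 start site and held none of the motifs. Tnfsf8, which encodes CD30 ligand, had 2 peaks 407 bp apart at 78.2 and 78.6 kb upstream (chr4:63939422-63939594 and chr4:63939829-63940001). These were the assigned peaks closest to the limit of 100 kb, and no peak beyond the limit had a listed gene as its nearest. The farther of the pair held copies of the AGGTCA core on the plus strand, 15 and 28 bp from its centre, with a GATA and a STAT site. The gene Tnc was almost as close, at 81.2 and 80.8 kb, and a further peak 80.2 kb from Tnfsf8 went to Tnc, at 79.2 kb. The noncoding gene 8030451A03Rik was closer to the pair than either, at 40.3 and 39.9 kb.

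The remaining ligand peaks both held DR1. Tnfsf13b, which encodes the B cell survival factor BAFF, had 1 intronic peak 5.77 kb downstream of its start site (chr8:10012340-10012512). It was the only peak of the 16 downstream of the start site to which it was assigned, and it also held STAT-type sites. Cd40lg, which encodes the ligand by which helper T cells activate B cells, had 1 peak 34.5 kb upstream (chrX:57177589-57177761), with the next protein-coding gene, Vgll1, at 88.3 kb. The annotated antisense gene Gm14718 was closer to this peak than Cd40lg, at 23.0 kb, and took it when noncoding genes competed.

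The other 13 ligand genes had no assigned peak. At the TNF locus on chromosome 17, the nearest peak was 57.4 kb from Lta (lymphotoxin α), 60.8 kb from Tnf and 68.2 kb from Ltb (lymphotoxin β). It was 1 and the same peak (chr17:35262693-35262865), 49 bp from a start site of the class I histocompatibility gene H2-D1. Gene density leaves these 3 genes territories of only 9.41, 5.36 and 6.88 kb. Tnfsf9, Cd70 and Tnfsf14, neighbours on chromosome 17, had their nearest peak at 154, 199 and 243 kb. The apoptosis ligand genes Tnfsf10 (TRAIL) and Fasl had it at 141 and 310 kb. Tnfsf12, whose territory was 0.144 kb, and Tnfsf13 had it at 176 and 187 kb, and Tnfsf15 at 194 kb. Tnfsf11 (RANKL), at 585 kb, and the ectodysplasin gene Eda, at 6630 kb, were farthest from any peak.

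**Figure D2:**
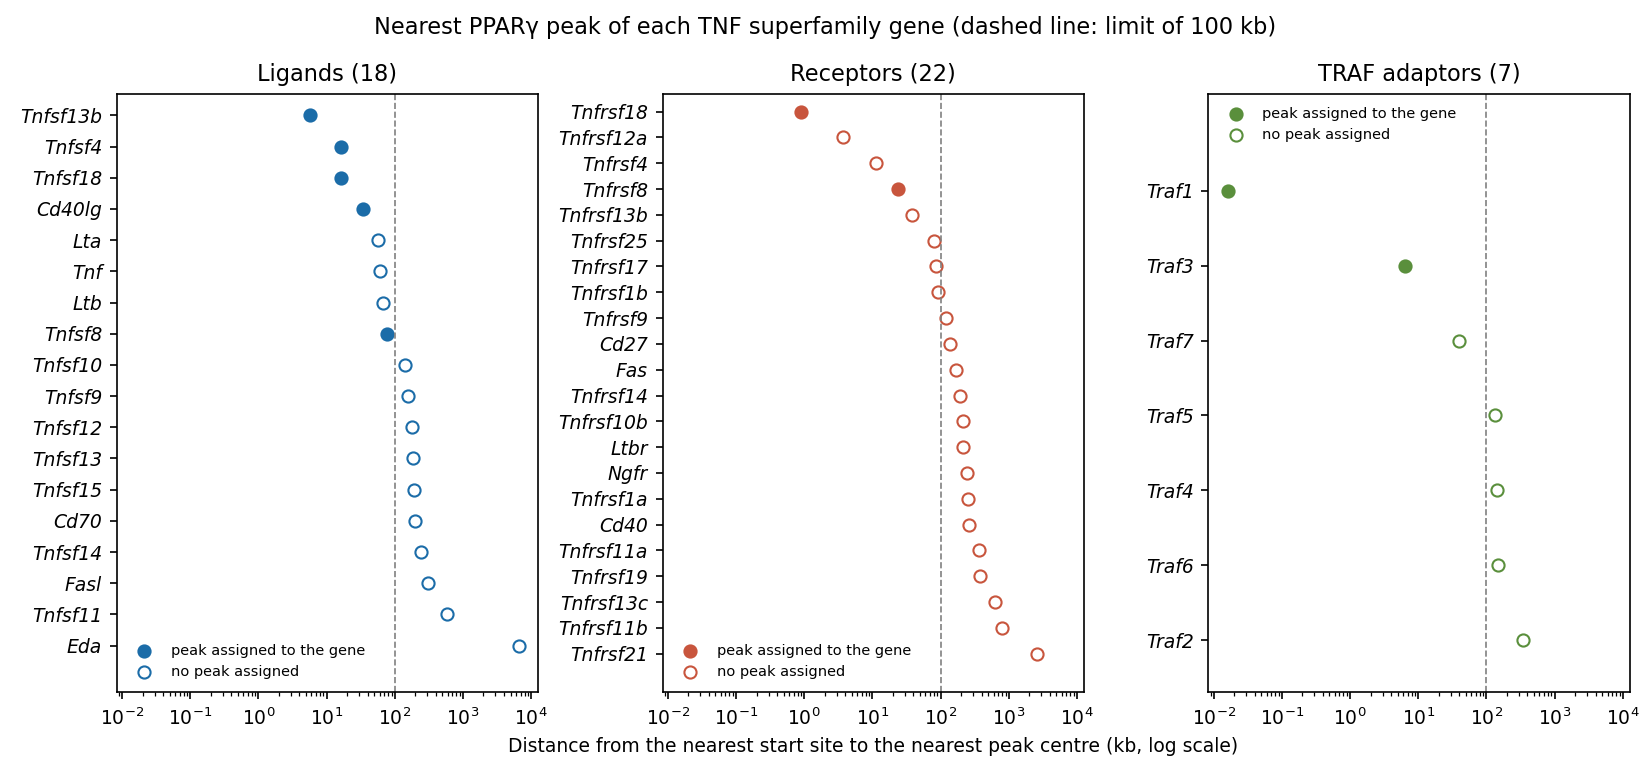
Distance from each gene's nearest start site to the nearest peak centre, in kb on a log scale, for ligands, receptors and TRAF adaptors. Filled points are genes with an assigned peak, open points are genes without one and the dashed line is the limit of 100 kb; open points left of the line are genes whose nearby peak was closer to another gene, such as Tnfrsf12a at 3.69 kb.

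Both receptor genes with a peak are costimulatory. Costimulatory receptors had 2 of 8 genes with a peak (25%, interval 3.19 to 65.1) and death domain receptors 0 of 6 (interval 0 to 45.9), beside 7.68% of all protein-coding genes. Tnfrsf25, which encodes the death receptor DR3 that also costimulates T cells, stands in both lists and had no assigned peak. Without it the counts were 2 of 7 and 0 of 5. The 9 receptors in neither list had none. The lists are too short for the difference to be told from counting error, and it was not tested.

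Tnfrsf18, the gene of the costimulatory receptor GITR, had the promoter peak printed first above (chr4:156025177-156025349), 901 bp upstream of its start site and inside the annotated antisense transcript Gm16008. Tnfrsf4, which encodes OX40, lies next to it, and the same peak was 11.4 kb from the nearest Tnfrsf4 start site. The peak sits between the end of Tnfrsf4 and the start of Tnfrsf18, and the rule gives it to Tnfrsf18 alone. Tnfrsf8, which encodes CD30, had 1 intergenic peak 23.6 kb upstream (chr4:145338651-145338823), with an NFAT-type site and no DR1 match. That peak was also 91.9 kb from Tnfrsf1b, the gene of the TNF receptor without a death domain.

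Of the remaining costimulatory receptors, Tnfrsf25 had its nearest peak at 81.2 kb, Tnfrsf9 at 121 kb, Cd27 at 138 kb, Tnfrsf14 at 190 kb and Cd40 at 264 kb. Among the other death domain receptors, Fas had it at 168 kb, the TRAIL receptor gene Tnfrsf10b at 211 kb, the neurotrophin receptor gene Ngfr at 241 kb and Tnfrsf1a at 251 kb. Tnfrsf21, which encodes DR6, had it at 2620 kb. The median distance was 101 kb in the costimulatory list, 226 kb in the death domain list and 318 kb over all protein-coding genes. In the third receptor group, peaks of other genes lay 3.69 kb from Tnfrsf12a, 38.2 kb from Tnfrsf13b and 86.7 kb from Tnfrsf17. The Tnfrsf12a case shows the reach of the rule: the peak was 100 bp from the start of Hcfc1r1, and the Tnfrsf12a territory spans 2.71 kb. The nearest peaks of Ltbr, Tnfrsf11a, Tnfrsf19, Tnfrsf13c and Tnfrsf11b lay between 215 and 789 kb.

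When each peak was instead given to every protein-coding gene with a start site within 100 kb, the shares of ligands and receptors were closer. Ligands had 8 of 18 genes (44.4%) and receptors 8 of 22 (36.4%), against 23.5% of all protein-coding genes. Costimulatory receptors had 4 of 8 and death domain receptors 1 of 6, the shared gene Tnfrsf25. The 10 genes gained were Tnf, Lta, Ltb, Tnfrsf1b, Tnfrsf4, Tnfrsf12a, Tnfrsf13b, Tnfrsf17, Tnfrsf25 and Traf7. By the main rule, 1 of the 11 listed genes with a territory under 20 kb had a peak, Tnfrsf18. Beside it stands the 7.68% of all protein-coding genes of any territory, since the share for small territories alone was not counted.

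TRAF adaptors had peaks at 2 of 7 genes (28.6%, interval 3.67 to 71.0), against 7.68% of all protein-coding genes. Traf1, the adaptor that associates with CD30 and other costimulatory receptors and is itself induced by NF-κB, had 3 peaks, a number reached by 78 of all protein-coding genes (0.357%). The first was 16 bp upstream of an internal start site and 3.59 kb downstream of the outermost one (chr2:34958093-34958265). The other pair lay 1.74 and 2.61 kb upstream of the outermost start site (chr2:34963421-34963593 and chr2:34964296-34964468), 875 bp apart. Both were closer to the annotated pseudogene Gm13450, at 1.4 and 0.522 kb, which took them when noncoding genes competed. The peak 1.74 kb upstream of Traf1 was the only peak of the 16 centred in repeat-masked sequence. Traf3, whose product restrains the noncanonical NF-κB pathway, had 1 peak 6.46 kb upstream (chr12:111159819-111159991), in an exon of the gene 4930595D18Rik. Traf7 had a peak of another gene at 40.2 kb, and the nearest peaks of Traf5, Traf4, Traf6 and Traf2 lay between 132 and 349 kb.

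**Figure D3:**
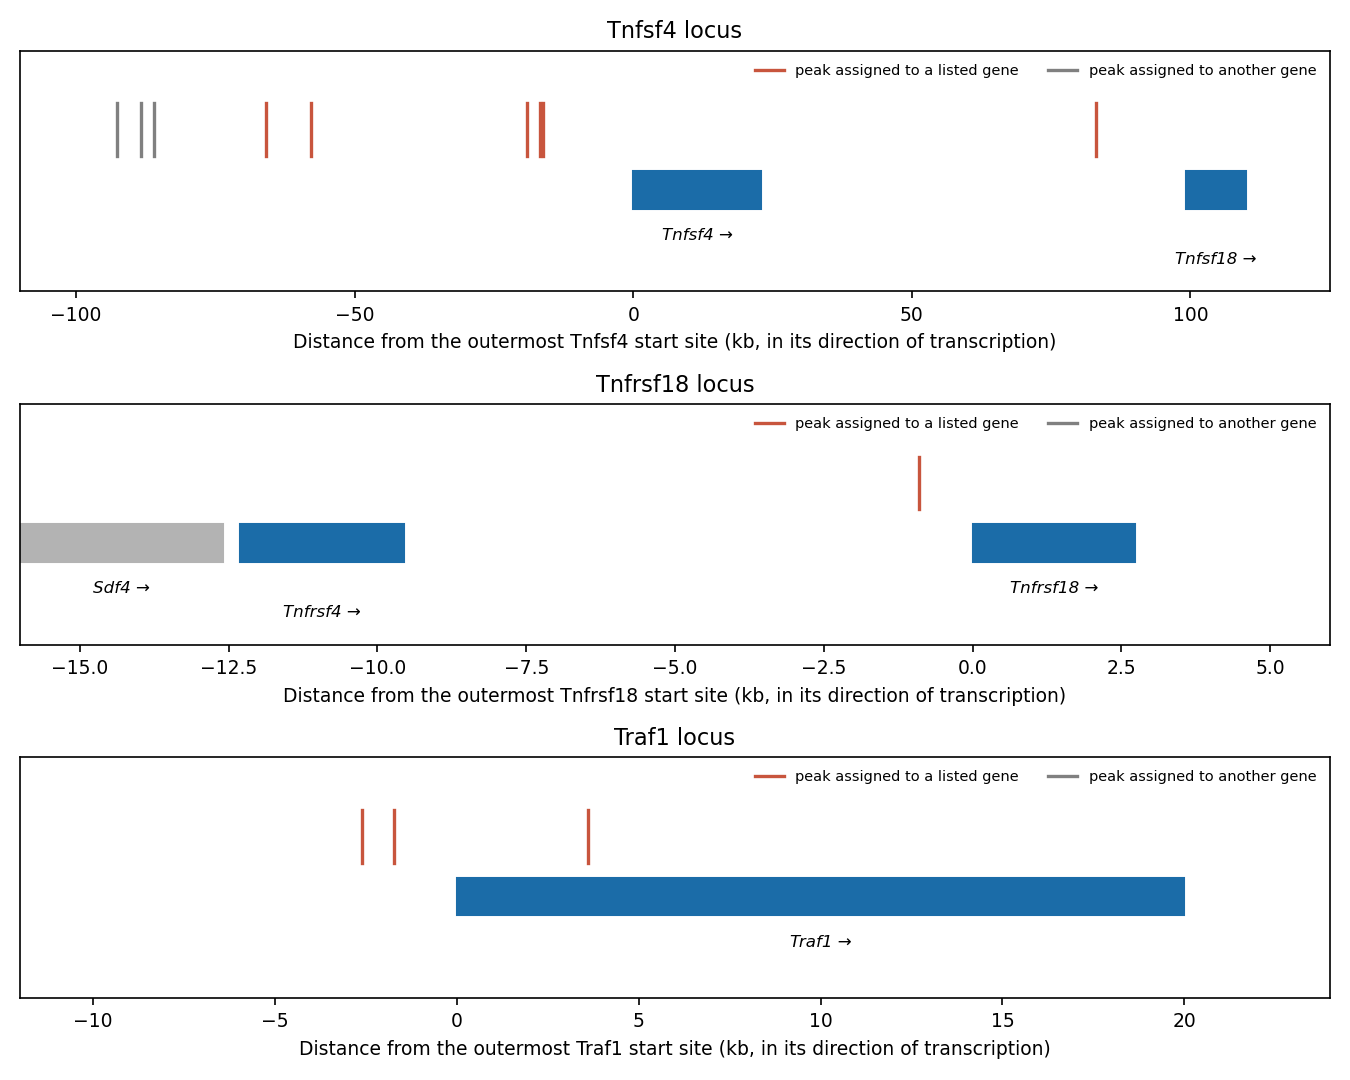
Maps of the Tnfsf4, Tnfrsf18 and Traf1 loci, in kb from the outermost start site of each, in its direction of transcription. Boxes are protein-coding genes (blue for listed genes) and vertical lines are peaks, red where assigned to a listed gene and grey where assigned to another; the 5 Tnfsf4 peaks lie 16.1 to 65.9 kb upstream, the Tnfrsf18 peak lies between Tnfrsf4 and Tnfrsf18, and 1 of the 3 Traf1 peaks lies inside the gene.

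Set out as 25 known ligand and receptor pairs, 2 pairs had a peak at both genes. These were CD30 ligand with CD30 (Tnfsf8 and Tnfrsf8) and GITR ligand with GITR (Tnfsf18 and Tnfrsf18). In 5 pairs the ligand gene alone had a peak, in none the receptor gene alone, and in 18 neither. The 5 comprise OX40L with OX40, CD40 ligand with CD40, and BAFF with each of its 3 receptors, so the pairs are not independent of each other. The OX40 pair would join the first group if the Tnfrsf18 peak were also given to Tnfrsf4. Only 2 receptor genes had a peak, so the lack of pairs with the receptor gene alone rests on 2 genes. The pairs were drawn up after the peaks were seen, and no share over other gene pairs was counted to set beside them.

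The 16 peaks were mostly intergenic and upstream. Of them 12 were intergenic (75%, interval 47.6 to 92.7), against 31.5% of the 2108 peaks assigned to other genes, and 1 was intronic, against 55.6%. Upstream of the nearest start site lay 15 of 16 (93.8%, interval 69.8 to 99.8), against 44.2% of the other peaks. The 16 are not independent: joined within 1 kb they form 13 groups, and 5 belong to Tnfsf4. Counted by gene and from the nearest start site, 8 of 9 had all their peaks upstream. Of these, Traf1 had 1 peak 16 bp upstream of an internal start site but 3.59 kb downstream of the outermost one. Only 3 of the 9 genes had more than 1 peak, so the count by gene largely repeats the count by peak. The same count over all protein-coding genes with a peak was not made. Upstream sequence made up 55.7% of the territory of the 9 genes, against 45.8% for all protein-coding genes with a peak, and the genes' own bodies 19.5%, against 47.6%. Over all 47 listed genes, upstream sequence made up 46% of the territory, against 44.9% for all protein-coding genes. Their own bodies made up 29.8%, against 41.5%. The part of the make-up of the territories in the position of the peaks was not tested.

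The median distance to the start site was 16.5 kb in the 16 peaks and 16.4 kb in the others, with a range of 0.016 to 78.6 kb in the 16. DR1 matches were present in 3 of 16 (18.8%, interval 4.05 to 45.6) and in 18.9% of the others, and in 18.2% of all 2537 peaks. AP-1 sites were present in 3 of 16 and in 15.6% of all peaks, GATA sites (AGATAA or TGATAA) in 3 of 16 and 23.5%, and RUNX sites in 3 of 16 and 16.2%. The AGGTCA core alone, which can be part of a DR1 match, was present in 3 of 16 and 25.7%. STAT-type sites (TTCNNNGAA) were present in 2 of 16 and 8.83%, and STAT6-type sites, whose spacer is 1 base longer, in 1 of 16 and 7.21%. NFAT-type sites (GGAAAA) were present in 1 of 16 and 15.9%. ETS sites (CAGGAAG or CCGGAAG) were found in 0 of 16, against 10.3% of all peaks.

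NF-κB consensus sites, of interest because NF-κB is the main transcription factor downstream of these receptors, were found in 0 of 16 peaks (interval 0 to 20.6) and in 2.56% of all peaks. None of the 10 motifs was present in 6 of the 16 peaks (37.5%), against 21.8% of all peaks. Of these 6 peaks, 3 form the group 16.1 to 19.1 kb upstream of Tnfsf4, so the share leans on 1 locus. A single mismatch was not enough for any DR1 match at the listed genes, whereas 6.07% of all peaks had a match with at most 1. At counts of 3 in 16, a difference from the other peaks would have to be large to be detectable. Median GC content was 48.0% in the 16 peaks and 43.9% in the others.

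**Figure D4:**
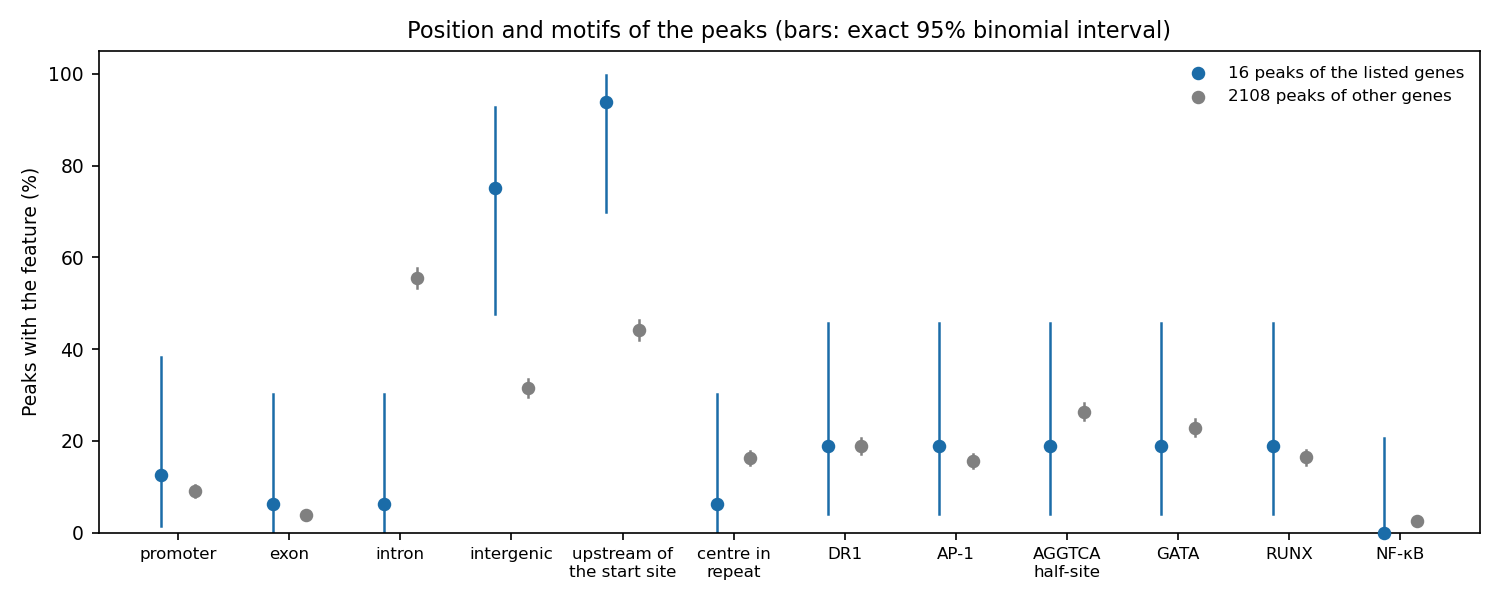
Percent of peaks with each position class and motif, for the 16 peaks of the listed genes (blue) and the 2108 peaks assigned to other genes (grey), with exact 95% binomial intervals as vertical lines. The largest differences are in intronic (6.25% and 55.6%), intergenic (75% and 31.5%) and upstream position (93.8% and 44.2%), while the DR1 shares are 18.8% and 18.9%.

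Among 38 further genes of the pathway, which include receptors outside the main list, 9 had an assigned peak (23.7%, interval 11.4 to 40.2, against 7.68% of all genes). They split into 1 of 6 further receptor genes, 2 of 17 genes of adaptors and death machinery, and 6 of 15 genes of the NF-κB arm. Casp8, the initiator caspase of death receptors, had 2 peaks, the nearer 36 bp from a start site. Tnfrsf26, a mouse receptor gene without a place in the main list, had a promoter peak at 327 bp and Cyld, which removes ubiquitin chains from TRAFs and other signalling proteins, at 618 bp. Map3k14, which encodes the kinase NIK that TRAF3 holds at low levels, had an exonic peak at 2.58 kb. The other 5 genes were added after their values were seen, since their peaks lay beyond 5 kb. Tnip1, which encodes a partner of the deubiquitinase A20, had 1 peak at 9.02 kb, and Nfkbia, the gene of the NF-κB inhibitor IκBα, 1 at 18.5 kb. Otulin, whose product removes linear ubiquitin chains, had 2 peaks, the nearer at 17.8 kb in an intron. Nfkb1, an NF-κB subunit gene, had 2 with the nearer at 30.7 kb, and Tnfaip3, the gene of A20, had 3 with the nearest at 56.2 kb. Of the peaks nearest to each of the 9 genes, that of Otulin held a DR1 match and the other 8 did not.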

How the data were processed

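Peaks of 1 ChIP library were analysed, which the authors had called over 1 input library. The submitters' processing notes name Bowtie2, HOMER and mm10 without versions, and the series' design text adds that tags without a unique position were dropped. Per the file headers, 54617 of 10229438 tags (0.534%) lay in the 2537 peaks, on average 21.5 per peak, the threshold at a false discovery rate of 0.001 was 8 tags, and peaks needed 4 times the density of the input and of the local 10000 bp. The deposited score is 1 in every row, so no peak could be ranked, a stricter threshold could not be set and each peak of 173 bp counted once.

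Start sites were those of protein-coding transcripts of the GENCODE vM21 basic set on GRCm38 (mm10), and sequence came from the RefSeq GRCm38.p6 genome. A promoter spanned 1000 bp upstream to 100 bp downstream of any of 55413 annotated genes' start sites, and classes were taken in the order promoter, exon, intron, intergenic from the peak centre. Motifs were searched in the deposited peak on both strands, and RUNX, AP-1 and the AGGTCA core may overlap other motifs. Exact intervals are Clopper-Pearson at 95%. No test was run, since there is 1 library. The genes, lists and motifs were chosen with earlier results of these data known. Named are all listed genes with a peak. Of the further pathway genes, those with a peak within 5 kb were to be named. The other 5 with a peak were added after their values were seen. The assignment and motif searches were tested on simulated data. Python 3.11.15, pandas 2.3.3, scipy 1.17.1 and pysam 0.24.0 were used.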

Additional observations from a re-analysis of the deposited data

How the results depend on the processing

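The count of 9 genes with a peak stayed within 1.5 times under 6 of the 8 other settings, and 46 of 66 values in all did so. The 66 values are not independent, since the same genes and peaks recur in several counts. Some settings can only remove peaks, so a count of 0 could not change under them. With a limit of 10 kb the count of genes with a peak was 4 (ligands 1, receptors 1, costimulatory receptors 1) with 6 peaks, where 3.38% of all protein-coding genes had one. When each peak went to every gene within 100 kb it was 19 (ligands 8, receptors 8, costimulatory receptors 4, death domain receptors 1) with 27 peaks. When noncoding genes competed for peaks, 7 of the 47 genes kept a peak, without Cd40lg and Tnfsf8, where 4.84% of all protein-coding genes had one. Under this setting 3 ligands and 9 peaks remained. The first 1268 rows of the file gave 7 of the 47 genes, without Tnfrsf18 and Tnfsf8. The same rows gave 1 receptor, 1 costimulatory receptor, 8 peaks and 1 AP-1 match. In these rows 4.33% of all protein-coding genes had a peak. What the row order stands for was not established, so this setting is a subset of the peaks and not a known ranking. With 1 mismatch 0 peaks held DR1, and windows of 400 bp gave 5 peaks with AP-1 (31.2%, against 26.7% of all peaks) and 2 with an NF-κB site (12.5%, against 5.48%). The comprehensive annotation, added after the data were seen, gave the same 9 genes. The cause of these differences was not tested. No paired analysis was possible because no test was run on a single library. Depth could not be weighed for single peaks, since the rows hold no tag counts.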
